A study of Mus musculus with 5 samples.

Results

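Expression of 10 genes of the prostaglandin E2 pathway was described in colon tumors of 2 Control and 3 SIGLEC12 mice. The genes were chosen by symbol, as the entries of the deposited table named Pla2g4a, Ptgs1, Ptgs2, Ptges, Ptges2, Ptges3, Hpgd, Ptgr1, Ptger2 or Ptger4. Each symbol occurred once, so the members were 10 of 52143 entries. No rule on measured values was used to choose them, although earlier results of these data were known at that time.

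Both groups carried a tamoxifen-inducible Cre recombinase under the villin promoter (Villin1-Cre-ERT), which restricts Cre activity to intestinal epithelium. Control mice carried Villin1-Cre-ERT without the knock-in, and SIGLEC12 mice carried in addition a heterozygous floxed knock-in of human SIGLEC12 at the ROSA26 locus, read from a CAG promoter once Cre had removed a stop cassette. All were females of 8 weeks at the start, given tamoxifen at 10 mg/ml for 5 days, then azoxymethane, a colon carcinogen, at 10 mg/kg. They then received 4 cycles of dextran sulfate sodium, which injures colon epithelium, at 2.0% for 5 days with 14 days of recovery. Tumors were taken on day 87 and are labelled as colon, and the samples were Control replicates 1 and 4 and SIGLEC12 replicates 2, 3 and 4. The human transgene was not analysed here, so the knock-in was not checked against its own transcript.

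Prostaglandins are short-range lipid signals made from arachidonic acid, which cytosolic phospholipase A2 frees from membranes. Cyclooxygenases turn it into prostaglandin H2, and prostaglandin E synthases turn that into prostaglandin E2. Hydroxyprostaglandin dehydrogenase and the prostaglandin reductases inactivate prostaglandin E2, which otherwise acts on cells through the receptors EP2 and EP4, among others. In the intestine the constitutive cyclooxygenase Ptgs1 is known for upkeep of the mucosa, Ptgs2 as the inducible enzyme raised in colorectal tumors and inhibited by drugs used in their prevention, and Hpgd as a gene often reduced in such tumors.

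The promoters of the pair of cyclooxygenase genes and of the pair of receptor genes are shown because the levels of each pair are set against each other below. The sequences are from RefSeq on GRCm38.p6, on the gene's own strand, and run from 250 bases before the annotated start to 50 after it. All 10 genes had an entry. Capitals mark matches on either strand to TATAAA (the TATA box), CGTCA (the core of the cAMP response element), CACGTG (an E-box) or GGGCGG (a GC box).
Ptgs1, chr2:36230176-36230475, plus strand: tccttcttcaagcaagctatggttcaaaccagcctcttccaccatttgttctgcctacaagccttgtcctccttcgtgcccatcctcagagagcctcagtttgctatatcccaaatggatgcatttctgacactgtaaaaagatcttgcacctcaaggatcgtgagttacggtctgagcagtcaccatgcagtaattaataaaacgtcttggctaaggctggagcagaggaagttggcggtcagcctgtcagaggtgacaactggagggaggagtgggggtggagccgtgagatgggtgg
Ptgs2, chr1:150099781-150100080, plus strand: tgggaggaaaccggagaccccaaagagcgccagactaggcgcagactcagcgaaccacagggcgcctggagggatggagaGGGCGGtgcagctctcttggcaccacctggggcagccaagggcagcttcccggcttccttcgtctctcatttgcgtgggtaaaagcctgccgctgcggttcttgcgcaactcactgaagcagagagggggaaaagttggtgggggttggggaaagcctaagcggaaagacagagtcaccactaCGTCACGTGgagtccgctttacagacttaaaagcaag
Ptger2, chr14:44987861-44988160, plus strand: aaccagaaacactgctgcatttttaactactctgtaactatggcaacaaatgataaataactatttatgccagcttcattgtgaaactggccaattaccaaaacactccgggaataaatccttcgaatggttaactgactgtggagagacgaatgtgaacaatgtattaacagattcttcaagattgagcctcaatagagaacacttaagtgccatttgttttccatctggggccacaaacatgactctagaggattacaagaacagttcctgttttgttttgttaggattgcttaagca
Ptger4, chr15:5244138-5244437, minus strand: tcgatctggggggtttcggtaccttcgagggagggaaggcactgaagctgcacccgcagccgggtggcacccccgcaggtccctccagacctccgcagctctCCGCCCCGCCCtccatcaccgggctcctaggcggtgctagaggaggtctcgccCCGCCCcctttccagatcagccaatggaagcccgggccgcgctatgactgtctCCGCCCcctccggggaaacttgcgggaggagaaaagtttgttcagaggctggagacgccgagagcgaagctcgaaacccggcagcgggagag

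The Ptgs2 window held 1 GGGCGG at -170 to -165, counted from the annotated start at 1, and 1 CGTCA at 14 to 18, which overlapped a CACGTG at 17 to 22. The Ptgs1 window held no match to any of the 4 motifs. The Ptger4 window held 4 GGGCGG matches, all on the opposite strand and 2 of them overlapping by 1 base, and the Ptger2 window held none. G and C bases made up 50.7% of the Ptgs1 window and 59.3% of that of Ptgs2, 37.7% for Ptger2 and 67% for Ptger4, against a median of 52.7% over 32851 mouse promoters. CpG dinucleotides numbered 6 in Ptgs1, 16 in Ptgs2, 3 in Ptger2 and 25 in Ptger4, with a median of 7. Of all these promoters 13.6% held TATAAA, 20.8% CGTCA, 7.15% CACGTG and 35.7% GGGCGG. Among the other members, TATAAA lay at 5 to 10 in Hpgd and at -200 to -195 on the opposite strand in the second of 2 Pla2g4a promoters, CACGTG at -77 to -72 in Ptges2, and the Ptges3 window held 4 GGGCGG, 46 CpG and 73.7% G and C.

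Values were deposited as log2(TPM + 1), where TPM is a level per transcript length relative to all RNA of the sample. Read depth is therefore unknown. Protein-coding genes took 5.70% and 6.73% of the total in Control and 8.75% to 9.72% in SIGLEC12, so a gene with a fixed share of protein-coding RNA stood higher in SIGLEC12 on the deposited scale. The median log2 difference over all 10338 genes tested was 0.38 as deposited. It was 0.01 over 14331 genes on a rescaled version, here called the protein-coding scale, in which the TPM of protein-coding genes were made to sum to 1000000 in each sample. For the members that scale is given beside the deposited one, as the level itself and as the difference of log2(level + 1). As 1 TPM is 10.3 to 17.6 of its units, the added 1 weighs less there. Low genes can therefore differ between the scales through the added 1 as well as through the scaling. Control replicate 1 stood apart, with 7947 genes at a TPM of at least 1 against 9532 to 10090 in the other 4 samples. It also had the highest summed level of squamous epithelial markers and the lowest of columnar epithelial markers. Each result is therefore also given without it where that matters. Nothing in the labels marks a batch.

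Ordered by mean level over the 5 samples, Ptges3 came first at 17.9 TPM, followed by Hpgd at 10.5, Pla2g4a at 3.24, Ptges2 at 1.93, Ptgr1 at 1.53, Ptger4 at 1.47, Ptgs2 at 1.18, Ptgs1 at 0.957 and Ptges at 0.729. Ptger2 came last at 0.0189 TPM. The most abundant members were thus a synthase and a breakdown enzyme, and the cyclooxygenases lay close to 1 TPM. The ranges of neighbours in this order did not overlap at 3 places. Ptges3 was above Hpgd in 5 of 5 samples and 1.71-fold higher in the mean. Hpgd was 3.24-fold above Pla2g4a, also in 5 of 5 samples, and Ptges was above Ptger2 in 5 of 5. Elsewhere the ranges overlapped, and Ptgr1 was above Ptger4 in only 2 of 5 samples. Among 21995 protein-coding genes, Ptges3 lay at the 97.1 percentile of mean level, Hpgd at the 94.7, Ptgs2 at the 62.8 and Ptger2 at the 25.4. The plot of the members by sample shows both scales.

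**Figure D1:**
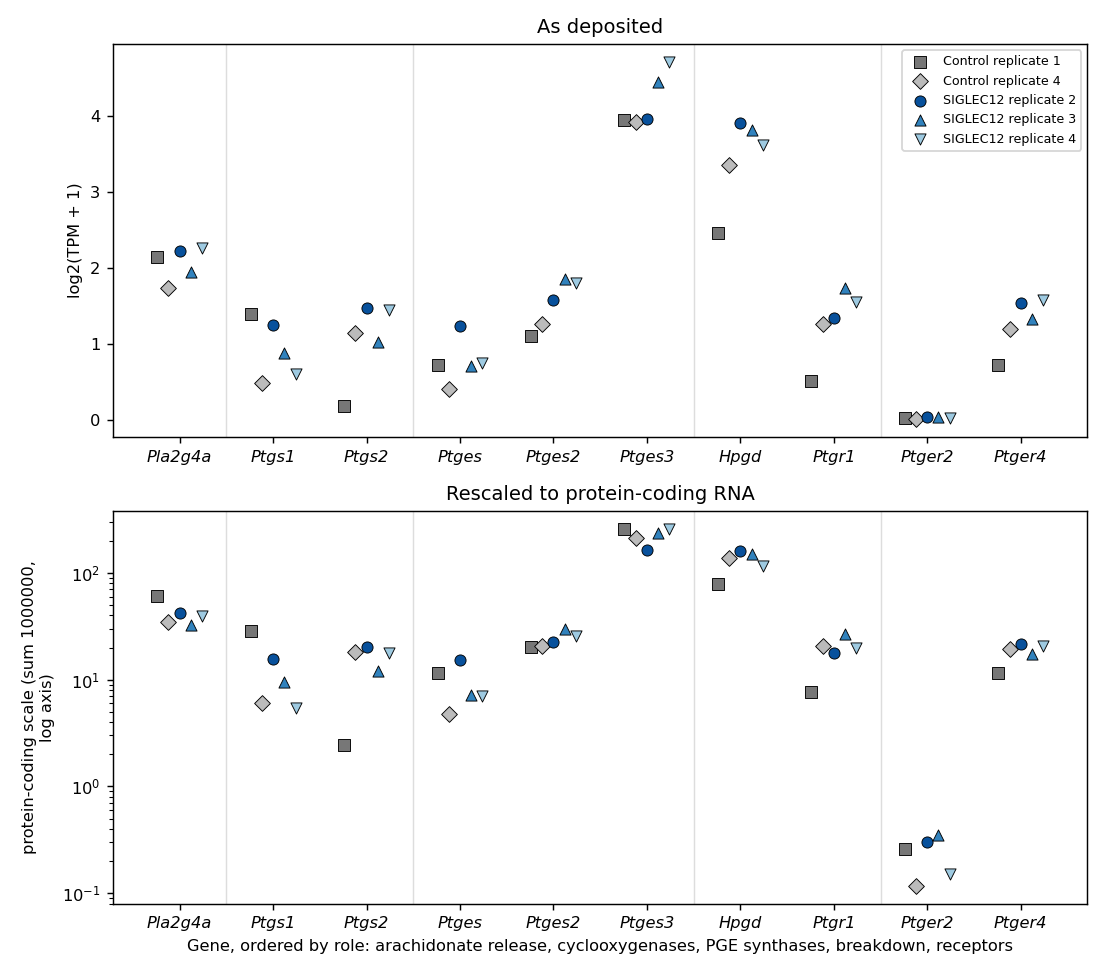
Level of each of the 10 prostaglandin genes in each sample, as deposited in log2(TPM + 1) (upper panel) and on the protein-coding scale with a log axis (lower panel). Points are single samples, in gray for Control and blue for SIGLEC12. Control replicate 1 is the lowest sample for Ptgs2, Hpgd, Ptgr1 and Ptger4 in both panels and the highest for Ptgs1, and Ptger2 is near 0 in all 5.

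Arachidonate release was represented by Pla2g4a (ENSMUSG00000056220, GRCm38 chr1:149829618-149961290, minus strand), the cytosolic phospholipase A2. In log2(TPM + 1) it was 2.15 and 1.74 in Control replicates 1 and 4, and 2.23, 1.95 and 2.27 in SIGLEC12 replicates 2, 3 and 4. The samples of the groups interleaved, and the 5 lay within a narrow range. The log2 difference, SIGLEC12 minus Control, was 0.20 (SE 0.20, 95% confidence interval -0.28 to 0.68; limma adjusted p = 0.458). The direction turned on the protein-coding scale, where it was 60.5 and 34.9 in Control against 41.7, 32.9 and 39.5 in SIGLEC12, a log2 difference of -0.28 (SE 0.27; limma adjusted p = 0.685). Neither difference was larger than the spread between samples. Without Control replicate 1 the latter was 0.11.

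Ptgs1 (ENSMUSG00000047250, chr2:36230426-36252272, plus strand), the constitutive cyclooxygenase, was 1.40 and 0.49 in Control and 1.25, 0.88 and 0.61 in SIGLEC12 on the deposited log2 scale. The Control samples enclosed all 3 SIGLEC12 samples. The log2 difference was -0.03 (SE 0.32, 95% confidence interval -0.81 to 0.74; limma adjusted p = 0.941). Its levels on the protein-coding scale were 28.7 and 6.04 in Control and 15.5, 9.58 and 5.42 in SIGLEC12, a log2 difference of -0.48 (SE 0.67; limma adjusted p = 0.779). Its sign depended on the samples used. As deposited the log2 difference was 0.42 without Control replicate 1, 0.12 without SIGLEC12 replicate 4 and -0.49 without Control replicate 4.

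Ptgs2 (ENSMUSG00000032487, chr1:150100031-150108227, plus strand), the inducible cyclooxygenase, was 0.19 in Control replicate 1 and 1.15 in Control replicate 4, and 1.48, 1.03 and 1.45 in SIGLEC12. In TPM these were 0.139 and 1.21 against 1.80, 1.04 and 1.72. Control replicate 1 was far below the rest, whereas Control replicate 4 lay inside the SIGLEC12 range. The group means were 0.67 ± 0.68 (SD, n = 2) and 1.32 ± 0.25 (SD, n = 3), a log2 difference of 0.65 (SE 0.31, 95% confidence interval -0.10 to 1.41) that did not pass the test (limma adjusted p = 0.182; exact permutation p = 0.3). Ptgs2 was 2.43 and 18.0 in Control and 20.3, 11.9 and 17.7 in SIGLEC12 on the protein-coding scale (log2 difference 1.10, SE 0.69; limma adjusted p = 0.553). The value turned on which Control sample was used. Against Control replicate 4 alone it was 0.17 as deposited and -0.14 on the protein-coding scale, and against Control replicate 1 alone 1.13 and 2.33, where limma, which then assumes that the lone sample varies like the others, gave adjusted p = 0.0478 and 0.0456.

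Ptgs2 and Pla2g4a lie next to each other on chromosome 1, on opposite strands, with 138740 bases and no protein-coding gene between them. Their levels did not follow the same order of samples, as Control replicate 1 was the lowest of 5 for Ptgs2 and the third highest for Pla2g4a on the deposited scale. The make-up of the cyclooxygenase step differed widely between the 2 Control samples. Ptgs1 took 92.2% of the summed cyclooxygenase TPM in Control replicate 1 and 25.1% in Control replicate 4, against 43.3%, 44.5% and 23.4% in SIGLEC12. The difference between the group means of 58.6% ± 47.5 (SD, n = 2) and 37.1% ± 11.9 (SD, n = 3) was smaller than the spread in Control (exact permutation p = 0.4). Shares within a step do not depend on the scale.

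**Figure D2:**
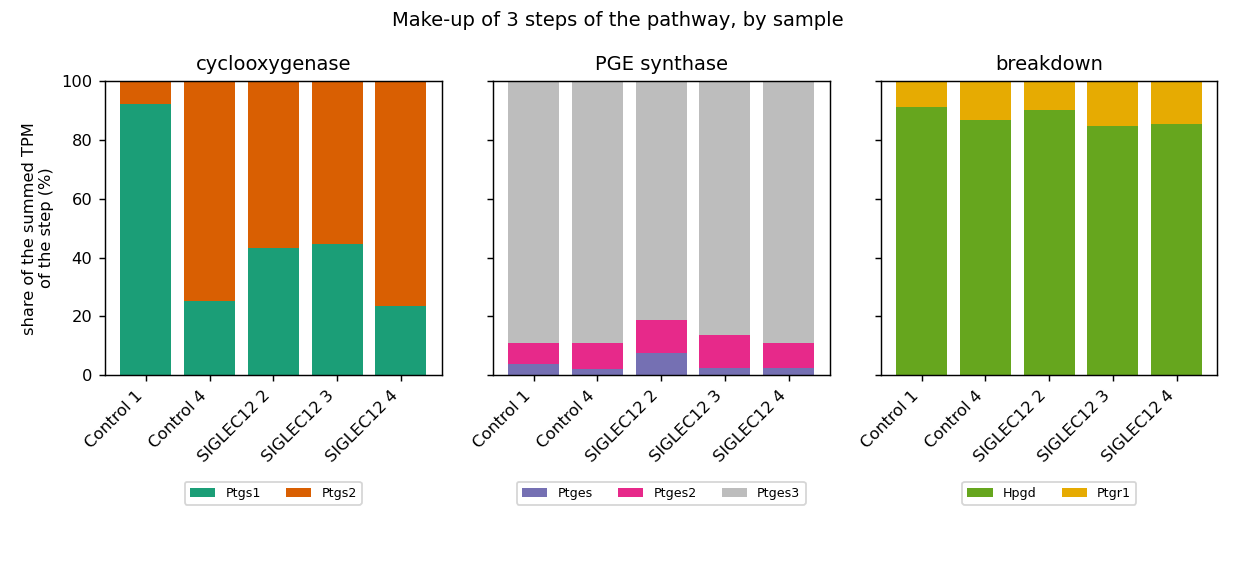
Share of the summed TPM of each step, in percent, taken by each gene in each sample: cyclooxygenases (left), prostaglandin E synthases (middle) and breakdown enzymes (right). Ptgs1 takes 92.2% of the cyclooxygenase step in Control replicate 1 and 23.4% to 44.5% elsewhere, whereas Ptges3 and Hpgd take more than 80% of their steps in every sample.

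Of the prostaglandin E synthases, Ptges (ENSMUSG00000050737, chr2:30889471-30929863, minus strand) encodes the inducible microsomal enzyme that works with Ptgs2. It was 0.72 and 0.41 in Control and 1.24, 0.71 and 0.75 in SIGLEC12 in log2(TPM + 1). SIGLEC12 replicate 2 was the highest, and the other 4 samples overlapped. Ptges reached 1 TPM in 1 sample and so did not enter the limma test as deposited, and its log2 difference of 0.33 had an exact permutation p = 0.5. It was tested on the protein-coding scale, where it was 11.4 and 4.82 against 15.3, 7.24 and 6.99 (log2 difference 0.27, SE 0.46; limma adjusted p = 0.822).

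Ptges2 (ENSMUSG00000026820, chr2:32395896-32405772, plus strand), a second membrane-associated synthase, was 1.11 and 1.26 in Control and 1.58, 1.86 and 1.80 in SIGLEC12. All 3 SIGLEC12 samples were above both Control samples. The means were 1.18 ± 0.11 (SD, n = 2) and 1.75 ± 0.15 (SD, n = 3), a log2 difference of 0.56 (SE 0.16, 95% confidence interval 0.17 to 0.96) that missed the threshold (limma adjusted p = 0.0988; exact permutation p = 0.1, the smallest that 2 against 3 samples can give). Rescaled to protein-coding RNA it was 20.3 and 20.8 in Control and 22.5, 30.1 and 25.5 in SIGLEC12. The groups again did not overlap, which held for no other member on that scale, and the log2 difference was 0.32 (SE 0.21, 95% confidence interval -0.17 to 0.82; limma adjusted p = 0.556). It varied little with the Control sample used, at 0.30 without replicate 1 and 0.34 without replicate 4.

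Ptges3 (ENSMUSG00000071072, chr10:128058954-128077272, plus strand) encodes the cytosolic synthase, which is also the Hsp90 cochaperone p23. It was 3.96 and 3.93 in Control and 3.97, 4.45 and 4.72 in SIGLEC12, so that SIGLEC12 replicate 2 was nearly level with Control. The log2 difference was 0.43 (SE 0.27, 95% confidence interval -0.22 to 1.09; limma adjusted p = 0.272), and on the protein-coding scale it was -0.09 (SE 0.25; limma adjusted p = 0.889). Its level is uncertain, because 20.3% of the 31-base stretches of its transcripts also occur in its pseudogene Ptges3-ps, listed at 7.99 to 13.7 TPM, and reads from them could be split between both. Ptges3 took 81.4% to 89.2% of the summed synthase TPM and Ptges 2.04% to 7.54%, where every SIGLEC12 share of Ptges3 was below both Control shares, by little in SIGLEC12 replicate 4 at 88.9% against 89.0% and 89.2%, and the Ptges shares overlapped (exact permutation p = 0.2 and 0.8).

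The breakdown enzyme Hpgd (ENSMUSG00000031613, chr8:56294585-56321043, plus strand), which oxidizes and so inactivates prostaglandin E2, had the largest mean difference among the members tested as deposited. It was 2.46 and 3.36 in Control and 3.92, 3.82 and 3.62 in SIGLEC12, or 4.50 and 9.29 TPM against 14.2, 13.1 and 11.3. All SIGLEC12 samples were above both Control samples, and Control replicate 1 was lowest. The log2 difference was 0.88 (SE 0.30, 95% confidence interval 0.15 to 1.60; limma adjusted p = 0.111). The levels on the protein-coding scale were 79.0 and 138 in Control and 160, 150 and 117 in SIGLEC12, and the groups overlapped (log2 difference 0.43, SE 0.28; limma adjusted p = 0.565). Against Control replicate 4 alone this was 0.03, and as deposited the value ran from 0.43 against Control replicate 4 to 1.33 against Control replicate 1 (limma adjusted p = 0.395 and 0.0414).

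Ptgr1 (ENSMUSG00000028378, chr4:58965439-58987119, minus strand), the reductase that takes the next step of inactivation and also inactivates leukotriene B4, was 0.52 and 1.26 in Control and 1.35, 1.74 and 1.55 in SIGLEC12. The groups did not overlap, although SIGLEC12 replicate 2 was close to Control replicate 4. The log2 difference was 0.66 (SE 0.26, 95% confidence interval 0.04 to 1.27; limma adjusted p = 0.132). Rescaled to protein-coding RNA it was 7.68 and 20.8 against 17.6, 26.8 and 19.9 (log2 difference 0.68, SE 0.42; limma adjusted p = 0.543), and 0.02 without Control replicate 1. As deposited it was 0.29 against Control replicate 4 alone and 1.03 against Control replicate 1 alone (limma adjusted p = 0.499 and 0.0454). Hpgd took 84.8% to 91.1% of the summed TPM of both enzymes, with overlapping groups (exact permutation p = 0.5).

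The receptors for prostaglandin E2 differed in level. Ptger2 (ENSMUSG00000037759, chr14:44988195-45003820, plus strand), which encodes EP2, was at 0.0147 and 0.00788 TPM in Control and 0.0268, 0.0307 and 0.0146 TPM in SIGLEC12. These values lay near 0 in every sample, it entered no limma test, and no fold is given. Ptger4 (ENSMUSG00000039942, chr15:5206661-5244187, minus strand), which encodes EP4, was 0.73 and 1.20 in Control and 1.54, 1.33 and 1.58 in SIGLEC12 in log2(TPM + 1). All SIGLEC12 samples were above both Control samples, by a log2 difference of 0.52 (SE 0.20, 95% confidence interval 0.03 to 1.004; limma adjusted p = 0.130). Against Control replicate 4 alone the difference was 0.28, and against Control replicate 1 alone 0.76 (limma adjusted p = 0.469 and 0.0552).

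Rescaled to protein-coding RNA, Ptger4 was 11.5 and 19.3 in Control and 21.6, 17.2 and 20.5 in SIGLEC12, and the groups overlapped (log2 difference 0.38, SE 0.27; limma adjusted p = 0.593). Without Control replicate 1 that difference was 0.03. Ptger4 was above Ptger2 in 5 of 5 samples. Ptger4 overlaps Ttc33 on the opposite strand, which was 0.682 and 1.12 TPM in Control and 1.95, 1.71 and 1.90 TPM in SIGLEC12. A stranded kit is named in the labels, but whether strand was used in quantification is not stated. Reads from sequence shared with an opposite-strand gene can therefore not be told apart here. In all, 15.2% of the 31-base stretches of Ptger4 transcripts occur in transcripts of 2 other genes. The pseudogene Gm15937, listed at or close to 0, holds 14.4%, and the part shared with Ttc33 was not counted apart.

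The members were then read against all genes. Of the 10 members, 8 had a TPM of at least 1 in at least 2 samples and were tested. By limma, 0 passed an adjusted p under 0.05 with at least a 2-fold change in either direction, as did 0 (0%) of the 10338 genes. At an unadjusted p of at most 0.05 with a 2-fold change, 0 members passed, against 3.97% of all genes higher and 0.445% lower. At an unadjusted p of at most 0.05 alone, 4 members were higher in SIGLEC12, Ptges2, Hpgd, Ptgr1 and Ptger4, against 33.4% of all genes. None was lower, against 0.909%. Groups did not overlap for 5 of 8 members, all higher, against 54.1% of all genes higher and 1.67% lower. The latter share was near the background, and with 8 members the former is not read as a result about them.

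The median log2 difference of the 8 members was 0.54 against 0.38 over all genes. On the protein-coding scale 9 members were tested and 0 passed an unadjusted p of at most 0.05 in limma, against 4.8% of genes higher and 5.18% lower. With a 2-fold change in addition these shares were 1.65% and 1.61%. Groups did not overlap for 1 of 9 members, Ptges2, which was higher, against 14.3% of genes higher and 16% lower. As deposited without Control replicate 1, 0 members reached an unadjusted p of at most 0.05, against 13.9% of genes higher, and 7 of 8 were higher with no overlap, against 58.7%. Without Control replicate 4, 3 members, Ptgs2, Hpgd and Ptgr1, passed the adjusted threshold, against 9.31% of all genes higher. The median log2 difference on the protein-coding scale was 0.32 for the members and 0.01 for all genes, and without Control replicate 1 it was 0.04 and -0.08. As deposited without Control replicate 1 it was 0.41 and 0.26. The plot of changes on both scales shows the intervals.

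**Figure D3:**
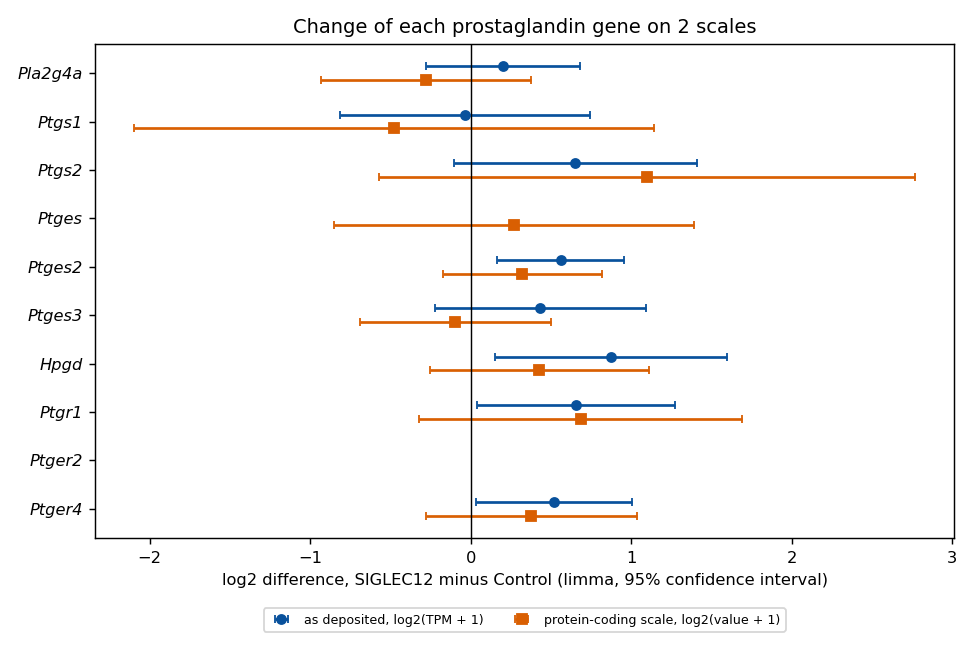
Log2 difference of each prostaglandin gene, SIGLEC12 minus Control, with its 95% confidence interval from limma, as deposited (circles) and on the protein-coding scale (squares). Ptges was tested on the second scale only and Ptger2 on neither. As deposited the intervals of Ptges2, Hpgd, Ptgr1 and Ptger4 lie above 0, and on the second scale every interval includes 0.

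Differences between members were then taken within each sample, as deposited. Ptgs2 minus Hpgd, which sets synthesis against breakdown, was -2.27 and -2.22 in Control and -2.44, -2.79 and -2.18 in SIGLEC12. The groups overlapped (difference -0.22; exact permutation p = 0.5), and the sign of the difference turned on the protein-coding scale, at 0.67, where the pseudocount is smaller. The ratio of their TPM, which has no pseudocount, was 0.0308 in Control replicate 1 and 0.131 in replicate 4, against 0.127, 0.0797 and 0.152 in SIGLEC12. Ptgs2 minus Ptgs1 was -1.21 and 0.65 in Control and 0.24, 0.15 and 0.84 in SIGLEC12 (difference 0.69, and 1.57 on the protein-coding scale; exact permutation p = 0.4 for both), so that Ptgs2 was above Ptgs1 in 4 of 5 samples. Ptger4 minus Ptger2 had groups that did not overlap as deposited (difference 0.50; exact permutation p = 0.1), and overlapping groups on the protein-coding scale (difference 0.29; exact permutation p = 0.6). The ratio of their TPM also overlapped, at 44.5 and 165 in Control and 71.4, 49.1 and 137 in SIGLEC12. With Ptger2 near 0, the difference as deposited largely restates Ptger4 and is not a separate result. The other 4 such differences had overlapping groups and exact permutation p between 0.4 and 0.6, over a family of 7.

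A wider list of 48 eicosanoid genes was all found in the table, and 21 were tested. They were 4 of 8 other prostanoid synthases and reductases, 2 of 2 breakdown enzymes, 2 of 3 transporters, 0 of 7 receptors, 7 of 12 phospholipases and lipases, 4 of 13 lipoxygenase and leukotriene genes, 1 of 2 epoxide hydrolases, and annexin A1. With limma, 0 passed the adjusted threshold and 0 an unadjusted p of at most 0.05 with a 2-fold change. At that p alone, 6 were higher, against 33.4% of all genes, and 0 lower, against 0.909%. On the protein-coding scale 3 of 38 were higher and 3 lower, against 4.8% and 5.18% of all genes, and as deposited without Control replicate 1 only 2 were higher, Akr1b3 and Pla2g2f, against 13.9%. The 6 higher as deposited were the aldose reductase Akr1b3, the prostaglandin reductases Ptgr2 and Ptgr3, the secreted phospholipases Pla2g2f and Pla2g10, and the monoacylglycerol lipase Mgll. The median log2 difference of the 21 genes was 0.41, against 0.38 over all genes. Over the 38 genes on the protein-coding scale it was 0.05, against 0.01, and -0.17 without Control replicate 1, against -0.08.

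Among the wider genes with a mean of at least 10 TPM, Anxa1 (chr19:20373428-20390944, minus strand), which encodes annexin A1, an inhibitor of phospholipase A2, was the highest at 158 TPM. It was 6.23 and 7.60 in Control and 7.43, 7.28 and 7.63 in SIGLEC12, with Control replicate 1 alone low (log2 difference 0.53, SE 0.42; limma adjusted p = 0.365). Without Control replicate 1 the difference was -0.15, and on the protein-coding scale with all samples it was -0.02. Cbr1 (chr16:93605853-93610505, plus strand), a carbonyl reductase that can convert prostaglandin E2 to prostaglandin F2alpha, was 2.93 and 3.73 in Control and 4.12, 4.07 and 3.84 in SIGLEC12. Its groups did not overlap (log2 difference 0.68, SE 0.28; limma adjusted p = 0.146), and on the protein-coding scale the difference was 0.19. Without Control replicate 1 these were 0.28 and -0.13.

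Pla2g2a (chr4:138831857-138835186, plus strand), a secreted phospholipase gene annotated here as a polymorphic pseudogene, was 0.52 in Control replicate 1 and 3.67 in replicate 4. It was 4.15, 4.34 and 3.48 in SIGLEC12, whose range held Control replicate 4. The log2 difference was 1.89 (SE 0.85; limma adjusted p = 0.163), and 0.32 against Control replicate 4 alone.

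On the protein-coding scale, where 38 of the wider genes were tested, 1 was higher and 2 were lower at an unadjusted p of at most 0.05 with a 2-fold change, against 1.65% and 1.61% of all genes, and 0 passed the adjusted threshold in limma. The lower genes were the leukotriene B4 receptors Ltb4r1, at 24.1 and 6.77 in Control and 4.36, 3.57 and 3.97 in SIGLEC12, and Ltb4r2, at 24.4 and 7.12 against 5.25, 3.67 and 2.59 (limma adjusted p = 0.493 for both). Both were highest in Control replicate 1. Without it their log2 differences went from -1.50 to -0.65 and from -1.60 to -0.78. The higher gene was the secreted phospholipase Pla2g2e, which was listed at 0 in Control replicate 1, at 1.90 in Control replicate 4, and at 1.70, 5.29 and 4.97 in SIGLEC12.

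Slco2a1 (chr9:102988712-103096002, plus strand), the transporter that takes prostaglandins into cells, was singled out after its values were seen. It was 1.85 and 1.74 in Control and 1.92, 1.31 and 1.23 in SIGLEC12 as deposited (log2 difference -0.30, SE 0.24; limma adjusted p = 0.363). Rescaled to protein-coding RNA it was 45.5 and 34.7 against 31.5, 17.0 and 13.8, and both Control samples were above all SIGLEC12 samples. The same held for 7 of the 38 wider genes tested on that scale, Slco2a1 included, and for 16% of all genes. The log2 difference of Slco2a1 on that scale was -0.99 (SE 0.36; limma adjusted p = 0.493), and -0.80 without Control replicate 1, so it did not pass the adjusted threshold. The plot of the wider list shows the 21 genes tested as deposited.

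**Figure D4:**
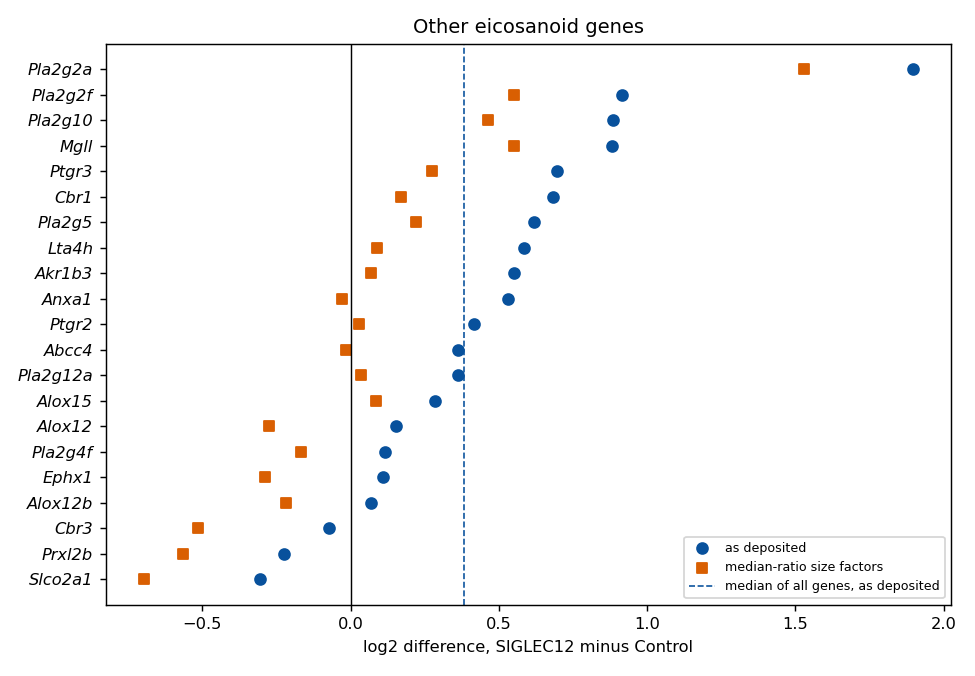
Log2 difference, SIGLEC12 minus Control, of the 21 other eicosanoid genes tested, as deposited (circles) and after scaling by median-ratio size factors (squares), with the median of all genes as deposited at 0.38 (dashed line). Pla2g2a has the largest difference at 1.89 and Slco2a1 the lowest at -0.30, and every gene lies further left after scaling.

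The pattern of Ptgs2 over the 5 samples was compared with that of all other tested genes by the root mean square difference of log2(TPM + 1), each gene centered on its own mean. Among the named genes most like it were Mettl7b, a methyltransferase-like gene, at 0.0134, and the calpain gene Capn5 at 0.0389. Mettl7b was 0.88 and 1.86 in Control and 2.19, 1.73 and 2.17 in SIGLEC12, with the same low Control replicate 1. Among the members, Ptger4 was nearest at 0.18, rank 419 of 10337, and Ptgs1 farthest at 0.72. These are descriptions over 5 samples that share their libraries.

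Marker genes of the cell types that a colon tumor can hold were summed in each sample. In bulk samples, fewer cells of a type and less RNA per cell cannot be told apart. Columnar epithelial markers were present in all samples, at 304 and 889 TPM in Control and 1082, 1062 and 1683 in SIGLEC12. Of these markers 6 of 8 were higher in every SIGLEC12 sample than in both Control samples, against 54.1% of all genes. The summed levels overlapped on the protein-coding scale, at 5335 and 13204 in Control and 12229, 12131 and 17319 in SIGLEC12. Squamous epithelial markers were also present, although the tissue is labelled as colon. Their sum was 2626 TPM in Control replicate 1, against 539 in Control replicate 4 and 909, 354 and 458 in SIGLEC12. The basal keratin Krt14 alone was 1144 TPM in Control replicate 1 and 50.8 to 199 in the others, and Krt5, Krt6a, Trp63 and Dsg3 were also highest there. The rest of the list was not. Krt4 was lowest in Control replicate 1, at 18.8 TPM against 56.6 to 174 in the others. Krt13 was 253 TPM there and 286 in SIGLEC12 replicate 2.

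Control replicate 1 was thus both the sample with the lowest columnar sum and that with the lowest Ptgs2, Hpgd, Ptgr1 and Ptger4. The part of this makeup in those differences was not tested. Fibroblast markers were 8.71 and 10.5 TPM in Control and 57.9, 18.0 and 24.4 in SIGLEC12. The sums also stayed apart on the protein-coding scale, at 153 and 156 in Control and 655, 205 and 251 in SIGLEC12. As deposited 3 of the 5 tested, Col3a1, Dcn and Pdgfra, were higher in every SIGLEC12 sample, near the 54.1% of all genes. Col1a1 and Col1a2 overlapped, at 1.43 and 1.30 TPM in SIGLEC12 replicate 3 against 2.08 and 1.71 in Control replicate 1. SIGLEC12 replicate 2 had the highest fibroblast sum and also the highest smooth muscle, endothelial, mast cell, T cell, and B and plasma cell sums. It was the highest for Ptges as well, and the part of any cell type in this was not tested. Macrophage markers ranged from 4.49 to 9.75 TPM in Control and from 5.29 to 22.7 TPM in SIGLEC12. Neutrophil markers were 21.6 and 25.0 TPM in Control and 24.5, 44.6 and 53.5 in SIGLEC12, and smooth muscle markers ranged from 33.2 to 88.6 TPM. Within the neutrophil sum, Ly6g alone was 4.30 and 17.4 TPM in Control and 15.1, 14.4 and 44.8 in SIGLEC12. The order differed for S100a8, at 9.99 and 3.52 against 4.61, 18.0 and 4.65, and for S100a9, which was lowest in SIGLEC12 replicate 4. The neutrophil sum is therefore not read as a level of these cells.

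Lists of other cell types were low in all samples. Mast cell markers summed to 0.279 and 0.925 TPM in Control and 1.80 to 8.43 TPM in SIGLEC12, and 0 of 5 were tested. In SIGLEC12 replicate 4, at 1.80 TPM, Cma1 alone was 1.37 TPM. There Cpa3 (0.00647 TPM) and Mcpt2 (0.141 TPM) were below Control replicate 4 (0.0205 and 0.178 TPM), and Mcpt1 and Tpsb2 were slightly above it. Endothelial markers summed to 0.892 and 0.951 TPM in Control and 1.82 to 4.26 TPM in SIGLEC12. Tuft cell markers summed to 1.38 and 1.20 TPM in Control and 1.73 to 4.31 TPM in SIGLEC12, with Il25 at 0 in every sample. On the protein-coding scale the endothelial sums stayed apart, at 15.6 and 14.1 in Control and 20.8 to 48.1 in SIGLEC12, and the tuft cell sums overlapped. T cell markers ranged from 0.289 to 0.681 TPM, with overlapping groups. B and plasma cell markers summed to 0.126 and 0.282 TPM in Control and 0.707 to 1.44 TPM in SIGLEC12, with Cd79a and Mzb1 under 0.1 TPM in every sample. The B and plasma cell sums stayed apart on the protein-coding scale, at 2.21 and 4.18 in Control and 7.28 to 16.3 in SIGLEC12. Most of this was Jchain, at 0.0902 and 0.177 TPM in Control and 1.33, 0.799 and 0.559 in SIGLEC12. Ms4a1 was also higher in every SIGLEC12 sample, whereas Cd79a and Mzb1 were highest in Control replicate 4. The plot of marker sums shows each list.

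**Figure D5:**
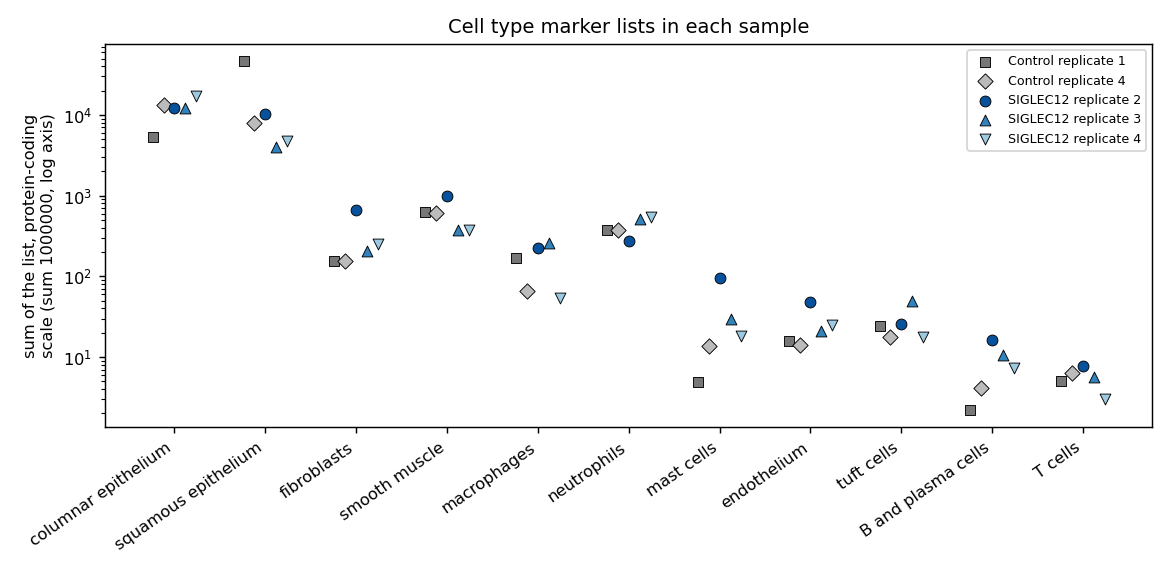
Summed level of each cell type marker list in each sample, on the protein-coding scale with a log axis, in gray for Control and blue for SIGLEC12. Columnar and squamous epithelial lists are the highest, and Control replicate 1 is the highest for squamous (46094) and the lowest for columnar markers (5335).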

How the data were processed

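RNA-Seq of colon tumors was quantified by the authors. Per the submitters' processing notes this was done with kallisto 0.45.0 and GRCm38, while the study's methods name another kallisto version and a human reference. The labels name a stranded total RNA kit and the study's methods a kit for mRNA with technical replicate libraries, and whether these were averaged is not stated. The deposited values are log2(TPM + 1), as 2 to the power of each value minus 1 sums to 1000000 per sample. TPM keeps no depth, so precision is given by the spread between samples. Samples were taken as separate mice, because the series is described as 3 mice for each condition, of which 1 Control mouse is not analysed here.

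Genes with a TPM of at least 1 in at least 2 samples (10338) were tested on log2(TPM + 1) with limma 3.58.1 in R 4.3.3 (lmFit, eBayes with a trend, no covariate), with Benjamini-Hochberg adjustment over all genes tested. The pseudocount of 1 understates changes of low genes. The threshold was an adjusted p under 0.05 with a 2-fold change, and an unadjusted p of at most 0.05 with a 2-fold change was also counted, because the study's methods select genes on P and a 2-fold change, and name a Benjamini-Hochberg correction in a separate passage. Single values were compared by a two-sided exact permutation test over samples (10 arrangements). On the protein-coding scale 14331 genes were tested, with a pseudocount of 1 and a filter at 1 in units of that scale. Both are smaller in TPM than as deposited. Biotypes, coordinates and shared 31-base stretches came from GENCODE M21, which held 98.45% of the identifiers, and promoters from RefSeq (GRCm38.p6). The fit was tested on simulated data. Alternatives were no filter, a filter at 5 TPM, a pseudocount of 0.1, median-ratio size factors, equal protein-coding totals, no trend, sample weights and leaving out each sample. The protein-coding scale was chosen after seeing the data.

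The members and lists were chosen with earlier results of these data known. Named beyond the 10 members were wider eicosanoid genes past the unadjusted threshold or with a mean of at least 10 TPM, the 3 named genes nearest to Ptgs2 in pattern (1 is not reported here), and markers that a sentence on a list needed. Slco2a1 and the wider genes at an unadjusted p of at most 0.05 with a smaller change were named after their values were seen.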

Additional observations from a re-analysis of the deposited data

How the results depend on the processing

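By limma, 0 members passed the adjusted threshold as deposited and under each alternative except leaving out Control replicate 4, so that the count ran from 0 to 3 with 1 sample left out. At an unadjusted p of at most 0.05 with a 2-fold change the count was 1 (Ptgr1) with a pseudocount of 0.1, and 0 to 3 with a sample left out. Members with all SIGLEC12 samples above Control numbered 2 under a filter at 5 TPM, where only Ptges3 and Hpgd were tested, so neither changed. They numbered 1 of 8 (Ptges2) under median-ratio size factors and under equal protein-coding totals. On the protein-coding scale it was 1 of 9, against 14.3% of all genes. Lower members numbered 0 to 1 with a sample left out. Wider genes past the unadjusted threshold and higher numbered 3 with a pseudocount of 0.1, 1 with sample weights, 1 on the protein-coding scale, and 0 to 6 with a sample left out. On the protein-coding scale 2 were lower. The members' median was 0.86 with a pseudocount of 0.1, 0.21 with median-ratio size factors and 0.22 with equal protein-coding totals. Equal protein-coding totals keep the pseudocount near 1 TPM. With them Ptgs2 was 0.44 and Ptgr1 0.38, against 0.65 and 0.66 as deposited and 1.10 and 0.68 on the protein-coding scale.

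Directions turned for the following genes under median-ratio size factors, equal protein-coding totals and the protein-coding scale, in that order: Pla2g4a to -0.24, -0.22 and -0.28, and Ptges3 to -0.0988, -0.0888 and -0.0945. Ptgs1 turned to 0.0227 with a pseudocount of 0.1 and 0.0926 with sample weights. Ptgs2 minus Hpgd turned to 0.52 with a pseudocount of 0.1, and to 0.0633, 0.0494 and 0.67 under the same 3 scalings. Ptgr1 minus Hpgd turned to 0.19 with that pseudocount, 0.000148 with median-ratio size factors and 0.26 on the protein-coding scale. The cause was not tested.

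With 1 sample left out, log2 differences as deposited ran from 0.43 to 1.33 for Hpgd, -0.00114 to 0.41 for Pla2g4a, 0.29 to 1.03 for Ptgr1, 0.28 to 0.76 for Ptger4, -0.49 to 0.42 for Ptgs1 and 0.17 to 1.13 for Ptgs2. On the protein-coding scale they ran from -0.66 to 0.11 for Pla2g4a, -0.28 to 0.82 for Ptges, -0.23 to 0.10 for Ptges3, -1.52 to 0.56 for Ptgs1 and -0.14 to 2.33 for Ptgs2. Over all alternatives and both scales limma adjusted p ranged from 0.0456 to 0.934 for Ptgs2, from 0.0414 to 0.98 for Hpgd and from 0.0454 to 0.988 for Ptgr1. Ptgs2 minus Ptgs1 ran from -0.25 to 1.62, Ptges minus Ptges2 from -0.48 to 0.00615, and Ptges minus Hpgd from -1.16 to 0.0666. Ptges2 ran from 0.49 to 0.65 as deposited and from 0.22 to 0.42 on the protein-coding scale. Hpgd, Ptgr1 and Ptger4 kept a positive sign under every alternative run for them, but on the protein-coding scale without Control replicate 1 they were 0.03, 0.02 and 0.03, against 0.83, 1.35 and 0.73 without Control replicate 4. No paired analysis was possible because Control and SIGLEC12 have 1 replicate number in common. With 2 Control samples, TPM and no depth, differences of the size of the Control spread could not be detected.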
